A study of Mus musculus with 7 samples.

Results

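The kinetochore is the protein assembly that joins a chromosome to the microtubules of the mitotic spindle. It is built on centromeric chromatin, which is marked by nucleosomes that carry the histone variant CENP-A. A constitutive centromere-associated network sits on these nucleosomes throughout the cell cycle, and in mitosis it recruits the microtubule-binding NDC80, MIS12 and KNL1 complexes, the SKA complex and the proteins of the spindle checkpoint. In the embryonic retina the cells that divide are the progenitors, and transcripts of this machinery are most abundant in dividing cells.

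The genes described are 38 centromere and kinetochore genes, chosen by name as parts of these complexes. Of these, 35 are listed under that symbol among the 16143 genes of the tables, and all 35 reached the level needed for the test. The other 3, Knl1, Cenps and Cenpx, are listed under the older symbols Casc5, Apitd1 and Stra13. Their values are given separately and they are not counted among the 35.

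Levels were compared between 4 shKmt2f libraries and 3 control libraries. Both came from retinas of ICR mice, an outbred stock, taken at embryonic day 17.5 (the design text gives day 17) and kept as explants for 2 days. Explants of the shKmt2f group received a hairpin plasmid aimed at Kmt2f, another name of the histone H3 lysine 4 methyltransferase gene Setd1a, and those of the control group received a control plasmid. Both groups also received a plasmid for EGFP, and only the EGFP-positive cells, isolated by sorting, were used. The cDNA was made by SMART-Seq v4 from 1 ng of total RNA. The promoter that drives the hairpin is not given in the sources used here, and no label ties a library to its own animal or culture. The spread that the p-values rest on may therefore be technical.

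Values are TPM, a length-scaled share of a library's transcripts, summed over the transcripts of a gene. Fold changes are shKmt2f minus control on the log2(TPM + 1) scale, which makes the change of a low gene look smaller than its ratio. The test was limma across the 12456 genes that reached 1 TPM in 3 or more libraries, with Benjamini-Hochberg adjustment and a threshold of 0.05. The depth behind each value is unknown, since TPM keeps none.

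The targeted gene did not pass as a sum. Setd1a (chromosome 7, 127776670 to 127800122, plus strand, GRCm38) had 8.26, 7.997, 4.50 and 6.99 TPM in the shKmt2f libraries, against 11.7, 7.83 and 7.36 TPM in the control libraries. The groups overlap, and in limma the sum did not pass (log2 fold change -0.33, SE 0.23, adjusted p = 0.365). It passed with transcripts weighted by length (-0.78, adjusted p = 0.0223), and with GC content and length corrected it was -0.07 (adjusted p = 0.875). Its longest transcript, of 6487 bases, was below the level needed for limma. That transcript stood at 0.407, 0.328, 0.374 and 0.432 TPM in the shKmt2f libraries and at 0.767, 0.959 and 0.764 TPM in the control libraries, without overlap (exact two-sided permutation p = 0.0286, the smallest that 35 splits of 7 libraries allow). The authors' deposited table gives this transcript an effect of -0.85 (natural log) and q = 1.74e-05.

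Across all genes, 1755 passed the threshold, 1295 of them higher and 460 lower in the shKmt2f libraries. The median log2 fold change of all genes was 0.09. Median-ratio scaling of the libraries moved it by -0.11 and gave 1120 higher and 826 lower genes. Control replicate 2 stood apart from the other controls: across genes its Pearson r was 0.978 with shKmt2f replicate 3, against 0.973 with control replicate 1 and 0.967 with control replicate 3. Without it, 3024 genes passed, and without any other single library between 282 and 504 passed. Results that rest on it are given with and without it below.

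Of the 35 centromere and kinetochore genes, 6 passed the threshold in limma. Cenpa, Cenpm, Cenpn, Spc24 and Pmf1 were lower in the shKmt2f libraries, and Mis12 was higher. Lower calls made up 14.3% of the 35 genes, where 3.69% of all genes tested were called lower, and higher calls made up 2.86%, where 10.4% of all genes were called higher. Calls in either direction were 17.1% of the 35, against 14.1% of all genes. The median log2 fold change of the 35 was -0.15, or -0.27 after median-ratio scaling, with 25 genes below 0 and 10 above it in the unscaled values. The ranges of the groups did not overlap for 8 of the 35 on the lower side (22.9%, against 9.67% of all genes) and for 2 on the higher side (5.71%, against 19.2% of all genes).

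The TPM of the 35 genes summed to between 943 and 1140 in the shKmt2f libraries and to between 1299 and 1336 in the control libraries. The widest falls in mean TPM were those of Cenpa, Cenpm, Spc24 and Pmf1, which are called lower from the same values, while 10 of the 35 lay above 0. The sum is therefore not a fall of every gene. The 29 genes not called had a median log2 fold change of -0.12. In these sorted but mixed cells, fewer cells of a type and less RNA per cell cannot be told apart.

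**Figure D1:**
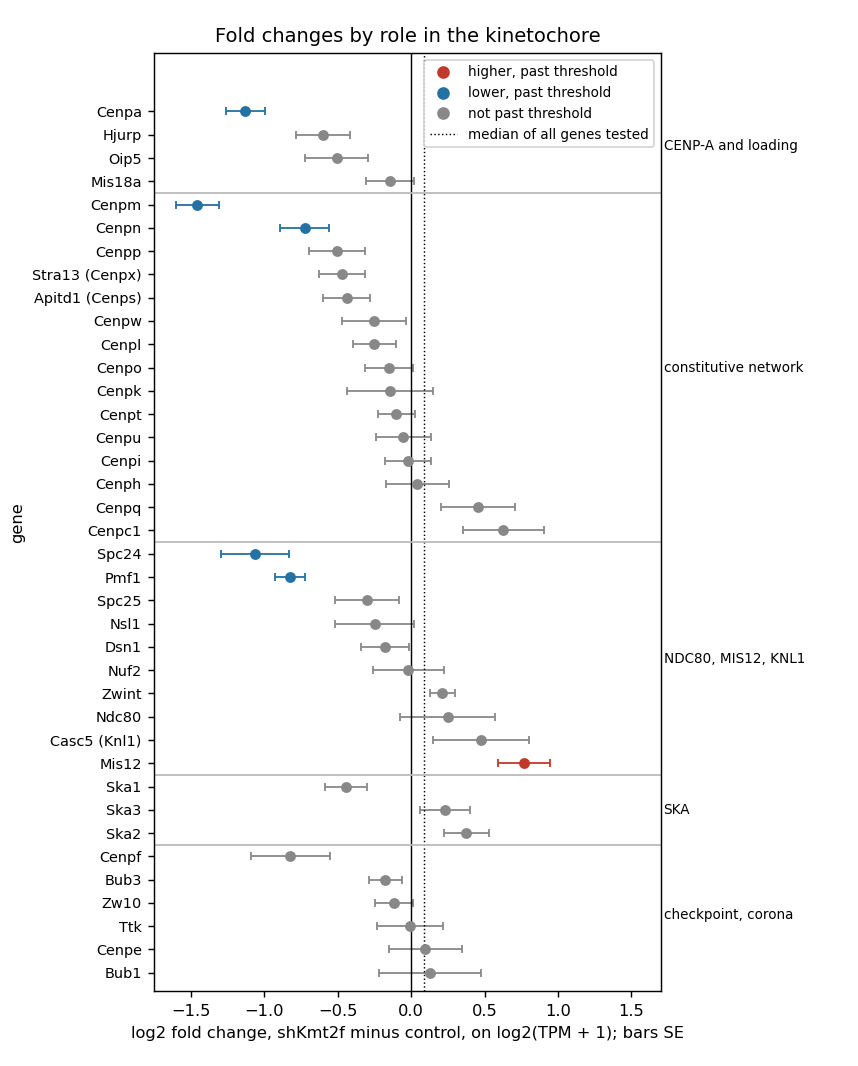
Log2 fold change, shKmt2f minus control, of the 35 genes and the 3 listed under older symbols, on log2(TPM + 1), grouped by role; points are limma estimates, bars their SE, blue lower and red higher past the threshold, and the dotted line the median of all genes tested. The 5 lower genes lie between -1.46 and -0.73, and Mis12 at 0.77 is the one higher gene.

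Leaving out single libraries changed these counts. The genes called numbered 4, 3, 3 and 5 without shKmt2f replicate 1, 2, 3 and 4, and 3, 10 and 3 without control replicate 1, 2 and 3. Of all genes, 2.26%, 2.57%, 4.02% and 4.05% were called without shKmt2f replicate 1, 2, 3 and 4, and 2.34%, 24.3% and 2.9% without control replicate 1, 2 and 3. Cenpa, Cenpm and Pmf1 were called in each of these fits and in all 15 alternatives tried. Without control replicate 2 there were 5 lower and 5 higher genes of the 35, since Cenpc1, Cenpq, Ndc80 and Ska2 then passed as higher beside Mis12. In that fit 4.7% of all genes were lower and 19.6% higher.

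Promoters of genes that are expressed in mitosis are known to carry CCAAT boxes and, near the start, a cell cycle genes homology region (CHR), which are bound by the NF-Y and MuvB complexes. Promoters from RefSeq on GRCm38.p6, covering 250 bases before to 50 bases after a start, were matched for 32 of the 35 genes (not Spc24, Nsl1 and Ska1), with 35 promoters. Shown 5′ to 3′ on the gene's strand are those of Cenpa, Cenpm, Cenpn and Pmf1, which were lower together, and that of Mis12, which was higher. Capitals mark CCAAT (read as ATTGG where it lies on the other strand), the CHR letters TTTGAA or TTCGAA on either strand, and the E2F letters TTTCCCGC. They lie at chr5:30666636-30666935 (plus strand) for Cenpa, chr15:82244287-82244586 (minus) for Cenpm, chr8:116921490-116921789 (plus) for Cenpn, chr3:88410348-88410647 (minus) for Pmf1 and chr11:71019361-71019660 (plus) for Mis12.
Cenpa: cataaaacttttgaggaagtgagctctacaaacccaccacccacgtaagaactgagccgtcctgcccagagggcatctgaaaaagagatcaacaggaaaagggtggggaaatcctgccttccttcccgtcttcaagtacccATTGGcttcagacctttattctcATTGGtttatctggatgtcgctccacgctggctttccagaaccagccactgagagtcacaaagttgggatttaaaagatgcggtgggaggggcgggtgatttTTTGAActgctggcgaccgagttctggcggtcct
Cenpm: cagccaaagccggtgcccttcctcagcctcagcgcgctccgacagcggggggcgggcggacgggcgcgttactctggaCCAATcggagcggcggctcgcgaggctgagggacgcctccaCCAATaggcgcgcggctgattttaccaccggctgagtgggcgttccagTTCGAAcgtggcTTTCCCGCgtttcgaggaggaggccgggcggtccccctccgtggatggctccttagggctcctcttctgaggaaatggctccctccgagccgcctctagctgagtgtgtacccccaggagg
Cenpn: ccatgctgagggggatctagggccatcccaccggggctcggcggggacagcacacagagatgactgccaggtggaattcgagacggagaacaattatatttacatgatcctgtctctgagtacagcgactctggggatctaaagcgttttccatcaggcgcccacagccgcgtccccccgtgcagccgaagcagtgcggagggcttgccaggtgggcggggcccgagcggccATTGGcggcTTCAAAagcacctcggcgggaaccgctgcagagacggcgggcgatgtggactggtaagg
Pmf1: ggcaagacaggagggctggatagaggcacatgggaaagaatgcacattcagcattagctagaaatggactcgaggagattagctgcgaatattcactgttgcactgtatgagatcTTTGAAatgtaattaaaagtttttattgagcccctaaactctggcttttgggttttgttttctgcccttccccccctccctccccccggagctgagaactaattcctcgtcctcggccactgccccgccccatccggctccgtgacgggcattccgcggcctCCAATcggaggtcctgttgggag
Mis12: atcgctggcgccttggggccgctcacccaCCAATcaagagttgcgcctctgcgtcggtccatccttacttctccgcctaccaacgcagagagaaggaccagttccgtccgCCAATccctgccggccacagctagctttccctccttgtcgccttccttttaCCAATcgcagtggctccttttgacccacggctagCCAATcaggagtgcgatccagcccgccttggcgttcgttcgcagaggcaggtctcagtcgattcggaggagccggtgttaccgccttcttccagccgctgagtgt

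In Cenpm, 2 CCAAT boxes begin 172 and 131 bases before the start, followed by TTCGAA at 83 and TTTCCCGC at 71 bases before it. In Cenpa, 2 CCAAT boxes on the other strand lie 109 and 86 bases before the start and TTTGAA lies just after it. In Cenpn the CCAAT box and TTTGAA, both on the other strand, lie 18 and 9 bases before the start. In Pmf1, TTTGAA begins 135 bases before the start and a CCAAT box lies just after it. These positions are counted from the RefSeq start and would differ with another start. The whole Pmf1 window lies before the gene coordinates given below, which begin at 88410331 on the minus strand. Mis12 holds 4 CCAAT boxes, the nearest beginning 55 bases before the start, and no CHR letters in this window. Among the 35 promoters, 74.3% hold CCAAT on either strand, against 37.4% of all 32851 promoters of the table. TTTGAA or TTCGAA is in 51.4% of the 35 and in 19.2% of all, and both kinds are in 40% of the 35 and in 7.52% of all. One of TTTCCCGC, TTTCGCGC, TTTGCCGC and TTTGGCGC, searched on both strands, is in 11.4% of the 35 and in 2.26% of all. A match is a description of these letters, not a binding site.

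Cenpa encodes the centromeric histone variant itself (ENSMUSG00000029177, chromosome 5, 30666777 to 30674830, plus strand). It had 64.2, 75.8, 73.1 and 87.6 TPM in the shKmt2f libraries, against 180.0, 145.2 and 171.6 TPM in the control libraries. Every shKmt2f library lay below every control library, and the mean of 75.2 ± 9.62 TPM (SD, n = 4) was 45.4% of the 165.6 ± 18.2 TPM in control (SD, n = 3). Its log2 fold change of -1.13 (SE 0.13) passed in limma with an adjusted p of 0.00603. Over the 15 alternatives the fold change lay between -1.25 and -0.87 and the adjusted p between 0.00116 and 0.0283.

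The 3 other genes of this group did not pass. Hjurp, the chaperone that deposits CENP-A, had 18.5, 26.5, 17.6 and 23.6 TPM in the shKmt2f libraries and 27.9, 31.5 and 39.9 TPM in the control libraries. The groups do not overlap, but the log2 fold change of -0.60 (SE 0.18) had a limma adjusted p of 0.0613. It passed after median-ratio scaling (adjusted p = 0.0214), with protein-coding transcripts only (0.0353) and with transcripts weighted by length (0.0297). Oip5 and Mis18a, subunits of the Mis18 complex that licenses the deposition, had log2 fold changes of -0.51 and -0.15, with adjusted p of 0.142 and 0.582.

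In the constitutive network, 2 of 13 genes were lower and none was higher (median log2 fold change -0.15). Cenpm, a subunit of the CENP-H, -I, -K and -M group (ENSMUSG00000068101, chromosome 15, 82233779 to 82244748, minus strand), had the lowest fold change of the 35 genes. It stood at 30.1, 38.9, 43.8 and 44.6 TPM in the shKmt2f libraries, against 108.5, 108.9 and 108.2 TPM in the control libraries. The 3 controls lay within 1 TPM of each other and far above all 4 shKmt2f libraries. Cenpm passed with a log2 fold change of -1.46 (SE 0.15) and a limma adjusted p of 0.00322, with a range of -1.58 to -1.12 over the alternatives. Its partners Cenph, Cenpi and Cenpk had log2 fold changes of 0.04, -0.02 and -0.15 (adjusted p of 0.919, 0.950 and 0.774). These values differ from that of Cenpm, but the difference itself was not tested.

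Cenpn, which binds the CENP-A nucleosome together with its partner Cenpl (ENSMUSG00000031756, chromosome 8, 116921730 to 116941507, plus strand), had 7.08, 7.54, 5.83 and 8.61 TPM in the shKmt2f libraries, against 11.3, 11.9 and 14.8 TPM in the control libraries. The groups do not overlap, and Cenpn passed with a log2 fold change of -0.73 (SE 0.17) and a limma adjusted p of 0.0305. The call was lost without any 1 library other than control replicate 2, with adjusted p between 0.0519 and 0.0857. Cenpl stood at 16.6 ± 1.44 TPM (SD, n = 4) in the shKmt2f libraries and at 20.1 ± 3.28 TPM (SD, n = 3) in the control libraries (log2 fold change -0.25, limma adjusted p = 0.276).

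Cenpc1 encodes CENP-C, which links CENP-A nucleosomes to the MIS12 complex. It had 14.3, 15.5, 11.9 and 16.6 TPM in the shKmt2f libraries, against 7.29, 15.6 and 6.32 TPM in the control libraries. Control replicate 2 lay among the shKmt2f libraries and the other 2 controls below them. Cenpc1 did not pass, with a log2 fold change of 0.63 (SE 0.28) and a limma adjusted p of 0.154, but it had 0.99 without control replicate 2, adjusted p = 0.00541. With GC content and length corrected it had 0.10, adjusted p = 0.743. In Cenpq, control replicate 2 was the highest of the 7 libraries and the other 2 controls the lowest, with a log2 fold change of 0.45 (adjusted p = 0.254) and of 0.78 without control replicate 2 (adjusted p = 0.00968).

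The remaining network genes did not pass. Cenpo, Cenpp and Cenpu, of the same subcomplex as Cenpq, had log2 fold changes of -0.15, -0.50 and -0.05. Cenpt and Cenpw, histone-fold proteins that form another route to the outer kinetochore, had -0.10 and -0.25. The histone-fold partners Apitd1 (Cenps) and Stra13 (Cenpx) had log2 fold changes of -0.44 and -0.47, with limma adjusted p of 0.0974 and 0.0733, and their group ranges did not overlap. Without control replicate 2, Stra13 passed as lower (-0.56, adjusted p = 0.0437). The level of Cenpw is uncertain, since 2 pseudogene copies listed beside it averaged 33.5 and 9.26 TPM, more than the 5.87 TPM of Cenpw itself in shKmt2f and the 7.11 TPM in control libraries. After correction for GC content and transcript length, Cenpp and Cenpw passed as lower, with adjusted p of 0.0236 and 0.0499.

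**Figure D2:**
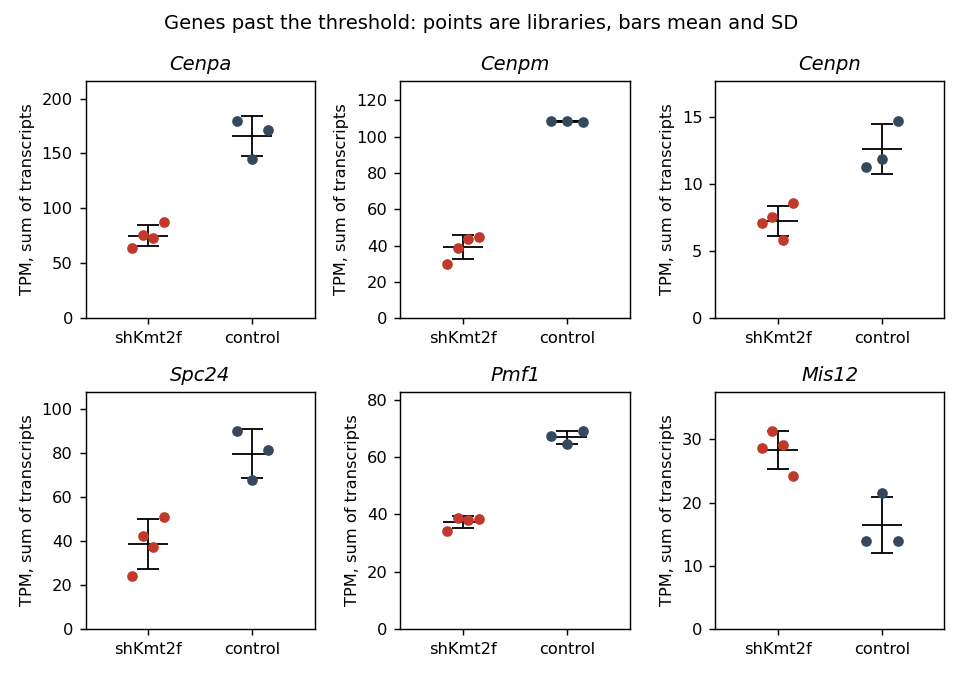
TPM summed over transcripts (vertical axes, each from 0) in the 4 shKmt2f libraries (left) and 3 control libraries (right) for the 6 genes past the threshold; points are libraries, the long dash the mean and the bars SD. The groups do not overlap in any panel, and the shKmt2f libraries are higher for Mis12 alone.

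Of the 9 genes of the NDC80, MIS12 and KNL1 complexes, 2 were lower and 1 was higher (median log2 fold change -0.18). In the NDC80 complex, the rod that binds microtubules, Ndc80 and Nuf2 form the microtubule-binding end and Spc24 and Spc25 the end that faces the chromosome. Spc24 (ENSMUSG00000074476, chromosome 9, 21755442 to 21760303, minus strand) had 24.1, 42.5, 37.4 and 50.9 TPM in the shKmt2f libraries, against 90.1, 67.9 and 81.5 TPM in the control libraries. The groups do not overlap, with the shKmt2f libraries spread over a wide range. In limma the difference was -1.06 (SE 0.23) in log2, with an adjusted p of 0.0274. The call was lost without shKmt2f replicate 2 or 3 (adjusted p of 0.0625 and 0.0602), without control replicate 1 or 3 (0.0958 and 0.0798) and with GC content and length corrected (0.0778).

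Ndc80 had 6.56, 7.81, 7.16 and 9.40 TPM in the shKmt2f libraries, against 5.26, 12.3 and 3.66 TPM in the control libraries. The controls enclose all 4 shKmt2f libraries, because control replicate 2 is the highest of the 7 and the other 2 controls the lowest. Ndc80 did not pass, with a log2 fold change of 0.25 (SE 0.32) and a limma adjusted p of 0.638, but it had 0.68 without control replicate 2, adjusted p = 0.0407. The value turned to -0.07 without control replicate 3 and to -0.14 with GC content and length corrected (adjusted p of 0.891 and 0.753). Nuf2 and Spc25 had log2 fold changes of -0.02 and -0.30, with adjusted p of 0.968 and 0.379.

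The MIS12 complex bridges the inner network and the NDC80 and KNL1 complexes, and its called subunits differed in direction. Pmf1 (ENSMUSG00000028066, chromosome 3, 88394143 to 88410331, minus strand) had 34.1, 38.7, 38.2 and 38.3 TPM in the shKmt2f libraries, against 67.4, 64.6 and 69.0 TPM in the control libraries. The groups are narrow and well separated, with a log2 fold change of -0.83 (SE 0.10) and a limma adjusted p of 0.00633. Over the alternatives the fold change lay between -0.95 and -0.54, the smallest change being that with GC content and length corrected (adjusted p = 0.0341). Mis12 (ENSMUSG00000040599, chromosome 11, 71019611 to 71027371, plus strand) had 28.6, 31.3, 29.1 and 24.2 TPM in the shKmt2f libraries, against 13.9, 21.5 and 13.98 TPM in the control libraries. All 4 shKmt2f libraries lay above the controls, of which replicate 2 came nearest. Mis12 passed with a log2 fold change of 0.77 (SE 0.18) and a limma adjusted p of 0.0307. The call was lost with transcripts weighted by length (0.0633) and without any 1 library other than control replicate 2, with adjusted p between 0.0549 and 0.0990. Dsn1 and Nsl1, the other subunits, had log2 fold changes of -0.18 and -0.25, with adjusted p of 0.495 and 0.565.

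The TPM sums of the subunits of a complex were also set against each other within a library. TPM is scaled by length, but the sums mix unlike transcripts, so their ratios are not ratios of subunit levels. In Pmf1, 41.3% is a transcript of 440 bases annotated for nonsense-mediated decay, and in Mis12 the transcript of 3003 bases holds 52.3%. All 12 pairs within the NDC80 and MIS12 complexes were taken, a comparison added after the data were seen. The ratios are of TPM + 1, which draws a ratio with a low subunit, such as Ndc80, toward equal. The log2 ratio of Mis12 to Pmf1 was -0.25, -0.30, -0.38 and -0.64 in the shKmt2f libraries, against -2.20, -1.54 and -2.22 in the control libraries. The pair thus stood closer to equal TPM in every shKmt2f library, a difference of 1.596 in the log2 ratio (exact permutation p = 0.0286). The log2 ratio of Ndc80 to Spc24 differed by 1.31, that of Mis12 to Dsn1 by 0.95 and that of Spc24 to Spc25 by -0.76, shKmt2f minus control, each with the same exact permutation p. Each of these pairs holds a gene already called from the same values, so the ratios are no separate support. For Mis12 to Pmf1, the ranges of both genes lie apart in opposite directions, which fixed the outcome of the ratio test. After adjustment over the 12 pairs no ratio passed 0.05, and the smallest adjusted p of the exact permutation tests was 0.0857.

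Knl1, listed as Casc5, is the docking platform of the checkpoint. It had 14.6, 19.98, 14.2 and 25.9 TPM in the shKmt2f libraries, against 10.8, 22.5 and 8.44 TPM in the control libraries. The groups overlap through control replicate 2, and the log2 fold change of 0.47 (SE 0.33) had a limma adjusted p of 0.355. It was 0.86 without that library (adjusted p = 0.0466) and 0.02 with GC content and length corrected (adjusted p = 0.956). Zwint, which binds KNL1 and recruits the corona, was the most abundant of the 35 genes in both groups. It had 240.1, 256.0, 230.2 and 233.3 TPM in the shKmt2f libraries and 209.9, 198.1 and 212.2 TPM in the control libraries, without overlap. In limma Zwint did not pass (log2 fold change 0.21, SE 0.09, adjusted p = 0.134).

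None of the 3 genes of the SKA complex, which holds on to depolymerising microtubules, passed. Ska1 had the lowest mean of the 35 genes over the shKmt2f libraries, with 1.88, 2.32, 2.73 and 2.37 TPM, against 3.61, 3.62 and 3.27 TPM in the control libraries. Its groups do not overlap, and the log2 fold change of -0.44 (SE 0.14) had a limma adjusted p of 0.0724. It passed as lower after median-ratio scaling (0.0464), with GC content and length corrected (0.0324) and with transcripts weighted by length (0.0332). Ska2 and Ska3 had log2 fold changes of 0.38 and 0.23, with adjusted p of 0.127 and 0.388. The Ska2 value includes the uncertainty of a pseudogene copy that averaged 6.10 TPM. Without control replicate 2, Ska2 passed as higher (adjusted p = 0.0285).

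None of the 6 genes of the checkpoint and the corona passed. Bub1, a checkpoint kinase that also marks the inner centromere, had 12.9, 18.5, 12.3 and 16.8 TPM in the shKmt2f libraries, against 7.81, 26.3 and 11.9 TPM in the control libraries. The controls span a wider range than the shKmt2f libraries, with control replicate 2 the highest of the 7, and Bub1 did not pass (log2 fold change 0.13, SE 0.35, limma adjusted p = 0.837). Its direction was not stable, with a log2 fold change of 0.58 without control replicate 2, -0.24 without control replicate 1 and -0.45 with GC content and length corrected, none past the threshold (adjusted p of 0.109, 0.688 and 0.295). Its partner Bub3, which also has roles outside mitosis, stood at 177.0 ± 10.7 TPM (SD, n = 4) in the shKmt2f libraries and at 201.0 ± 25.2 TPM (SD, n = 3) in the control libraries (log2 fold change -0.18, limma adjusted p = 0.316). Ttk, the kinase known as MPS1 that starts the checkpoint, Zw10, of the complex that recruits dynein, and the motor protein gene Cenpe had log2 fold changes of -0.01, -0.12 and 0.10.

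Cenpf, a large protein of the corona and of the nuclear matrix, had 5.84, 10.1, 8.52 and 15.4 TPM in the shKmt2f libraries and 15.6, 17.5 and 19.4 TPM in the control libraries. The highest shKmt2f library, replicate 4, came within 1 TPM of the lowest control. Cenpf did not pass, with a log2 fold change of -0.82 (SE 0.27) and a limma adjusted p of 0.0714. It passed after median-ratio scaling (0.0430) and without shKmt2f replicate 4, where the log2 fold change was -1.04 (adjusted p = 0.0449).

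**Figure D3:**
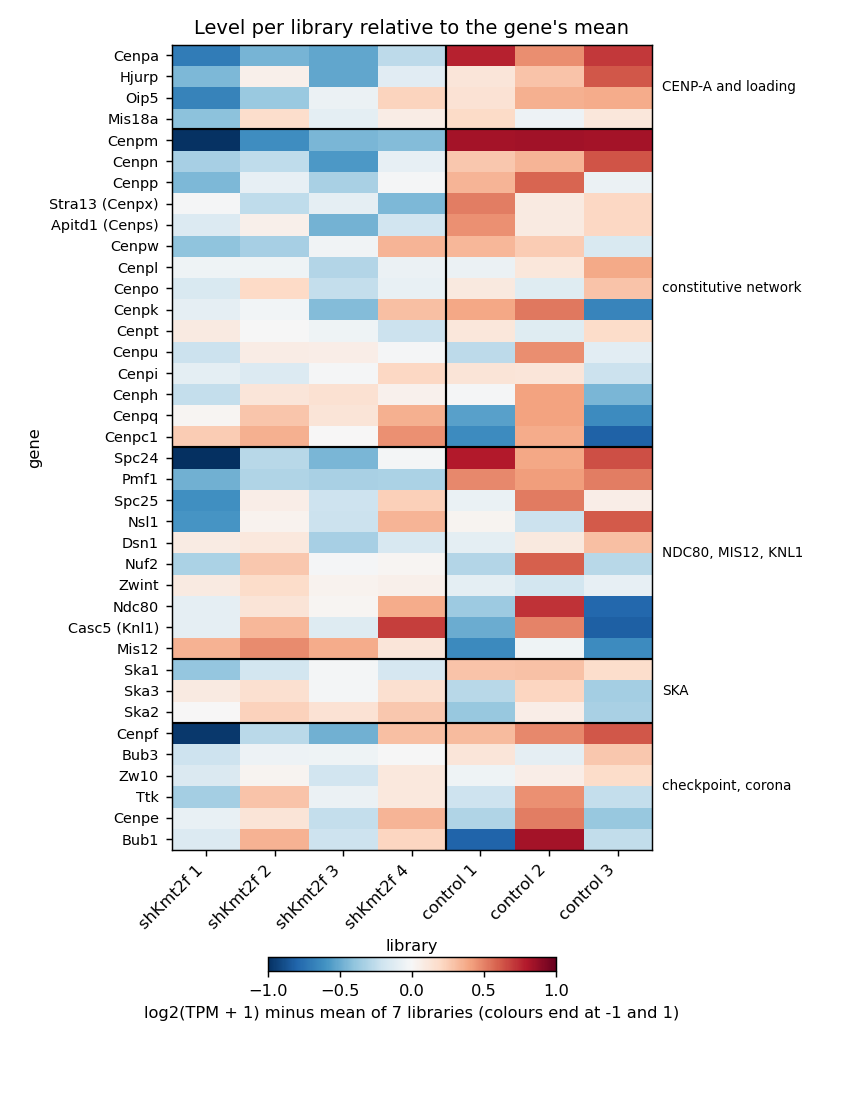
Level of each gene (rows, grouped by role) in the 4 shKmt2f libraries (left) and 3 control libraries (right), as log2(TPM + 1) minus the gene's mean over the 7 libraries; blue is below the mean and red above, and colours end at -1 and 1. Cenpa, Cenpm, Spc24 and Pmf1 are blue or near 0 in all shKmt2f libraries, and control 2 is red beside blue in control 1 and control 3 for Cenpc1, Cenpq, Ndc80 and Casc5.

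The place of control replicate 2 differed with base composition. The 35 genes were split by the GC content of their transcripts into the 17 with the lower and the 18 with the higher content, a split made after the data were seen. For the 17, the mean of log2(TPM + 1), relative to each gene's mean, was -0.24, 0.07, -0.11 and 0.22 in the shKmt2f libraries and -0.14, 0.44 and -0.23 in the control libraries. For the 18 it was -0.31, -0.05, -0.20 and -0.05 in the shKmt2f libraries and 0.17, 0.16 and 0.28 in the control libraries. Control replicate 2 was the highest control for 13 of the 17 genes, for 4 of the 18 and for 4925 of all 12456 genes tested.

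Across the 35 genes the log2 fold change correlated with GC content (Pearson r = -0.55, Spearman rho = -0.46) and with the log2 of mean transcript length (r = 0.48, rho = 0.40). Across all 12453 genes with a value, r was -0.46 for GC content and 0.25 for length. These correlations are descriptions across genes, which share the same 7 libraries. The 5 lower genes had a GC content of 48.4% to 57.4% and a mean transcript length of 433 to 1446 bases, while the 29 not called had 35.8% to 54.0% and 558 to 7910 bases. With each library corrected for GC content and length, 8 of the 35 genes passed, 7 lower and 1 higher, where 2.44% of all genes were lower and 3.12% higher, and the median of the 35 was -0.37. Cenpa, Cenpm, Cenpn and Pmf1 stayed lower and Mis12 higher.

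**Figure D4:**
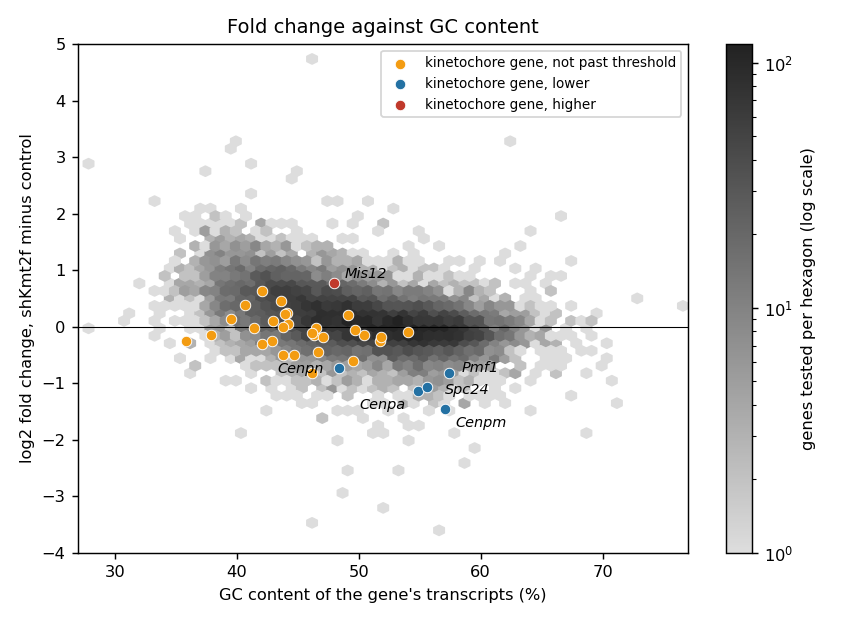
Log2 fold change, shKmt2f minus control (vertical), against the GC content of the gene's transcripts in percent (horizontal); grey hexagons count all genes tested on a log scale, and points are the 35 genes. Fold changes of all genes decline as GC content increases, and 4 of the 5 lower genes lie near 55% to 57% GC, below the grey cloud's centre.

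At the level of single transcripts, 148 transcripts of the 35 genes are listed and 105 were tested with limma over 37024 transcripts. Of these, 8 were lower and none was higher, and they belong to Cenpa, Cenpm, Pmf1 and Spc24. Of all transcripts tested, 0.794% were called lower and 1.44% higher, 2.24% in all. With the replicate number as a block, no transcript of these genes passed. Without control replicate 2 there were 15 calls, 11 lower and 4 higher, and without any other single library 2 or 3. The shares of all transcripts called in these fits are not given here. In the authors' deposited table, 16 of the transcripts have a q-value under 0.05, all with an effect below 0, where 5.52% of all transcripts there have such a q-value and 2.09% have it with an effect below 0. Of the 8 transcripts called by limma, 7 are among these 16. The 16 belong to 8 genes. Among these are Hjurp, Oip5 and Cenpf, whose sums did not pass in limma, with deposited q of 0.000257, 0.00152 and 0.00433 for 1 transcript each.

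The Cenpm sum rests largely on a protein-coding transcript of 286 bases, which holds 76.9% of it. This transcript had 22.5, 28.2, 34.4 and 30.3 TPM in the shKmt2f libraries, against 88.1, 84.5 and 83.4 TPM in the control libraries (log2 fold change -1.55, limma adjusted p = 0.00846). The Cenpm transcript of 1202 bases stood at 5.15 ± 1.62 TPM (SD, n = 4) in the shKmt2f libraries and at 10.6 ± 0.538 TPM (SD, n = 3) in the control libraries, without overlap (log2 fold change -0.95, limma adjusted p = 0.0635). In the authors' deposited table these 2 transcripts have effects of -1.17 and -0.84 on the natural log scale, with q of 1.53e-06 and 0.000226.

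For Cenpa, 3 transcripts passed as lower, of 369, 827 and 346 bases. The one of 369 bases, protein-coding and the most abundant, had 29.0, 28.4, 32.3 and 30.9 TPM in the shKmt2f libraries, against 74.5, 54.1 and 74.4 TPM in the control libraries (log2 fold change -1.13, limma adjusted p = 0.0153). It made up 40.5% ± 4.88 (SD, n = 4) of the Cenpa sum in the shKmt2f and 40.7% ± 3.10 (SD, n = 3) in the control libraries, a difference smaller than the spread (exact permutation p = 0.971). The one of 827 bases, annotated as a target of nonsense-mediated decay, averaged 12.4 TPM in the shKmt2f and 36.3 TPM in the control libraries. For Pmf1, transcripts of 440, 795 and 802 bases were lower, while that of 1007 bases averaged 5.14 TPM in the shKmt2f and 5.15 TPM in the control libraries. For Spc24, the transcript of 1366 bases passed as lower, at 9.45 ± 1.46 TPM (SD, n = 4) in the shKmt2f and 17.3 ± 0.588 TPM (SD, n = 3) in the control libraries (limma adjusted p = 0.0432).

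No single transcript of Mis12 passed. Its longest, of 3003 bases, had 12.4, 17.0, 12.8 and 14.8 TPM in the shKmt2f libraries, against 6.889, 13.2 and 7.9999 TPM in the control libraries. These ranges overlap through control replicate 2 (log2 fold change 0.60, limma adjusted p = 0.157). The rest of the sum came from transcripts of 340, 385 and 344 bases, of which that of 340 bases is listed at 0 in shKmt2f replicates 1 and 4 and in control replicate 3, and that of 344 bases at 0 in shKmt2f replicate 2 and control replicates 1 and 2.

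**Figure D5:**
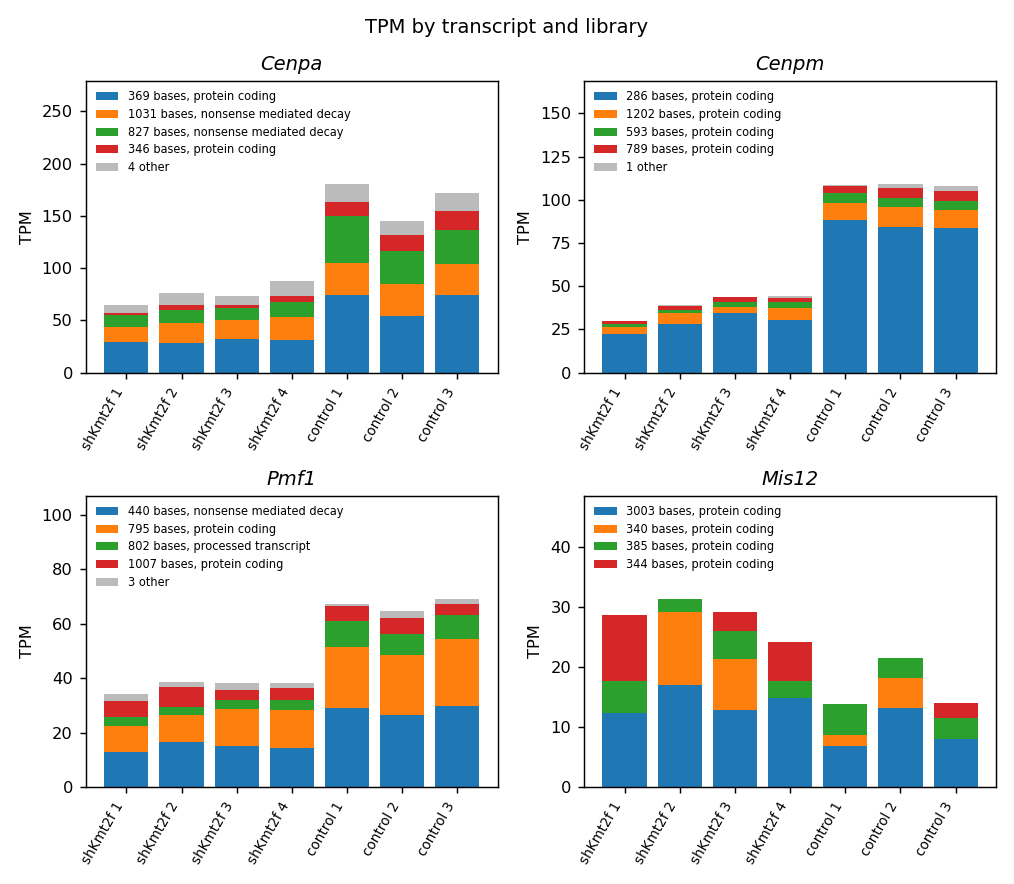
TPM (vertical, from 0) by transcript in each library (horizontal, the 4 shKmt2f libraries left of the 3 controls) for Cenpa, Cenpm, Pmf1 and Mis12; colours are the 4 most abundant transcripts, named by length and annotated type, and grey the others. Most Cenpm TPM is in the transcript of 286 bases in all 7 libraries, and the short Mis12 transcripts come and go between libraries of one group.

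The share of a gene's TPM held by its most abundant transcript was compared for 32 genes. The share differed without overlap for Ttk, where the transcript of 2871 bases held 78.3% ± 4.78 (SD, n = 4) in the shKmt2f and 60.03% ± 5.78 (SD, n = 3) in the control libraries. For Cenpf, a transcript of 609 bases annotated for nonsense-mediated decay held 26.2% ± 2.64 (SD, n = 4) in the shKmt2f and 37.7% ± 4.95 (SD, n = 3) in the control libraries. These 2 genes, with Hjurp, Cenpk and Bub3, had the smallest exact permutation p that the design allows (0.0286), and the smallest p adjusted over the 32 was 0.183, so none passed.

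Other genes of the same machinery were taken from a list of 28 regulators and partners that are not among the 35. Of these, 7 (25.0%) were lower and 1 (3.57%) was higher, where 3.69% of all genes tested were lower and 10.4% higher. The median log2 fold change was -0.20. These calls numbered 3, 5, 4 and 4 without shKmt2f replicate 1, 2, 3 and 4, and 3, 13 and 2 without control replicate 1, 2 and 3. The 13 are 7 lower and 6 higher, in the fit where 4.7% of all genes were lower and 19.6% higher. Genes of the chromosomal passenger complex, which corrects wrong attachments, were among the lower ones. Cdca8, its borealin subunit, had 21.6, 33.4, 31.0 and 38.9 TPM in the shKmt2f libraries, against 74.0, 73.3 and 81.2 TPM in the control libraries, without overlap (log2 fold change -1.29, SE 0.18, limma adjusted p = 0.0110). Birc5, its survivin subunit, had a log2 fold change of -1.03 (limma adjusted p = 0.0143), but a pseudogene copy that averaged 76.9 TPM makes its level uncertain. With pseudogene copies added, Birc5 had -1.16 (limma adjusted p = 0.0146). Plk1, a mitotic kinase, and Knstrn, a kinetochore adaptor, had log2 fold changes of -1.03 and -0.89 (limma adjusted p of 0.0159 and 0.0193). Birc5 no longer passed when control replicate 1 was left out (0.0510), Plk1 without control replicate 3 (0.05003) and Knstrn without shKmt2f replicate 1 or control replicate 3 (0.0522 and 0.0620). The one higher gene was Ckap5, a microtubule polymerase, at 0.78 (adjusted p = 0.0389), chosen for naming after its value was seen. The Ckap5 call was lost with GC content and length corrected (0.146) and without any 1 library other than control replicate 2, with adjusted p between 0.0698 and 0.0978.

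The lower values of the kinetochore genes stood beside lower values of other genes of dividing cells. Of 32 further genes of the late cell cycle, 16 (50.0%) were lower and none was higher (median log2 fold change -0.52). Of all genes tested, 3.69% were lower and 10.4% higher. The lower ones included Cdc20, Ube2c, Ccnb2 and Ccnb1, with log2 fold changes of -1.40, -1.17, -1.47 and -1.40. These 4 genes kept their calls in all 15 alternatives. Of 30 genes of DNA synthesis, 8 (26.7%) were lower and none was higher (median -0.30). Dut, Gins2 and Chaf1b, at -0.66, -0.74 and -0.63, lost their calls without several single libraries. The level of Rrm2, at -1.02, is uncertain because a pseudogene copy averaged 219 TPM. With pseudogene copies added, Rrm2 was at -1.07 (limma adjusted p = 0.00601). The 24 calls among these 62 genes became 9, 9, 8 and 14 without shKmt2f replicate 1, 2, 3 and 4, and 9, 29 and 8 without control replicate 1, 2 and 3. The 29 are 22 lower and 7 higher, in the fit where 4.7% of all genes were lower and 19.6% higher. Without any other single library, 2.26% to 4.05% of all genes were called. Their TPM summed to between 2629 and 3457 in the shKmt2f libraries and between 4278 and 4609 in the control libraries.

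Markers of cell types are given beside these values. Of all genes tested, 3.69% were called lower and 10.4% higher, and the lists are short. Retinal progenitor markers had 3 of 13 lower and none higher (median log2 fold change -0.33), with 9 below 0 and 4 above it. They summed to between 1142 and 1269 TPM in the shKmt2f and between 1444 and 1697 TPM in the control libraries. The widest gaps in mean TPM were those of Hes5 (222 in shKmt2f and 364 in control libraries), Dapl1 (115 and 207) and Ccnd1 (65.2 and 130). Pax6 (217 and 201) and Six6 (40.5 and 31.6) were among those that went the other way. Neurogenic precursor markers had 3 higher and 1 lower of 10, with sums of 2529 to 2863 TPM in the shKmt2f and 1967 to 2598 TPM in the control libraries. Their median log2 fold change was -0.26, with 7 of 10 below 0, and the higher genes were Neurod1, Neurod4 and Btg2. Photoreceptor markers had 3 of 9 higher and none lower, but their median was -0.01, with 5 of 9 below 0. Their sums, 693 to 917 TPM in the shKmt2f and 448 to 555 TPM in the control libraries, were mostly Otx2, which averaged 558 TPM in the shKmt2f and 370.1 TPM in the control libraries.

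Of 10 ganglion cell markers, 5 reached the level for the test, and these were called higher. Isl1 and Nefl reached it with the help of the shKmt2f libraries, where they were higher, so this count is partly set by the filter. Of all genes tested, 10.4% were called higher. The defining gene Pou4f2 averaged 0.0664 TPM in the shKmt2f and 0.0446 TPM in the control libraries. The list summed to 37.6 to 44.02 TPM in the shKmt2f and 15.9 to 23.9 TPM in the control libraries. Amacrine markers had 1 of 7 higher, which is 14.3% called, close to the 14.1% of all genes. Müller glia markers had 1 of 5 lower, Glul, where 3.69% of all genes were lower. The other 4 lay above 0 without a call, and the median log2 fold change of the 5 was 0.27. Bipolar markers had none of 2 called. Of 17 markers of non-retinal cells, 6 are listed and 3 were tested, with none called. Of the endothelial markers, Pecam1 averaged 0.111 TPM in the shKmt2f and 0.0737 TPM in the control libraries, and Kdr averaged 66.6 TPM in the shKmt2f and 61.02 TPM in the control libraries. The part of cell composition in the kinetochore values was not tested.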

How the data were processed

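Salmon 0.11.3, sleuth 0.30.0 and the build GRCm38.p6 are named in the submitters' processing notes, and the annotation is not given in the sources used here. The authors deposited 1 table of transcript TPM per library. The deposited tables also repeat a p-value, a q-value and an effect on a natural log scale, the same in all 7 tables, which are cited only as the authors' deposited table. Of 55475 rows, 71 hold no TPM, and TPM totals were 991445 to 992309 per library. TPM keeps no depth, so no counting interval is given.

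TPM was summed per gene and tested with limma 3.58.1 (trend, robust, group only) in R 4.3.3 on log2(TPM + 1), without further scaling, and checked on simulated data. Single values were tested with an exact two-sided permutation test over the libraries. GC content and length came from GENCODE transcripts, and pseudogene copies from blastn 2.17.0 (90% identity over 50% of their length). The GC and length correction was a loess fit per library (span 0.3).

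Values per library are given for genes past the threshold and for Cenpa, Cenpc1, Ndc80, Mis12, Knl1 and Bub1, with others where ranges did not overlap. Up to 4 passing genes of each other list are named. The members, lists and tests were chosen with earlier results of these data known. Alternatives were other scaling, filter, pseudocount, transcript sums, GC and length correction, a replicate block and leaving out each library.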

Additional observations from a re-analysis of the deposited data

Results flagged for a closer look

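In 2 genes, 1 shKmt2f library lay far from the other 3, with a gap that is a large share of the group's whole range. Pmf1 was lowest in shKmt2f replicate 1, at 34.1 TPM beside 38.2 to 38.7 TPM in the other 3, a gap of 0.889 of the range, and all 4 lay below the controls at 64.6 to 69.0 TPM. Cenpl was lowest in shKmt2f replicate 3, at 14.5 TPM beside 17.2 to 17.4 TPM in the other 3, a gap of 0.922 of the range, against controls at 17.2 to 23.6 TPM. Chance alone gives a gap past the critical share in about 1 of 20 groups. Among 35 genes, 2 such gaps are near the number that chance alone gives.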

How the results depend on the processing

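The count of centromere and kinetochore genes called, 6 of 35, was 6 to 9 under the 8 other alternatives and 3 to 10 with 1 library left out. Of all genes tested, 14.1% were called in the main fit. That share was 5.56% to 18.3% under the 8 other alternatives and 2.26% to 24.3% with 1 library left out. Correction for GC content and length moved the count of all genes from 1755 to 693 and that of the 28 partner genes from 8 to 5. With 1 library left out, the calls ranged from 282 to 3024 over all genes, from 2 to 13 among the partner genes, from 8 to 29 among the 62 genes of dividing cells (24 with all libraries) and from 2 to 15 among the transcripts. The 8 transcripts called became 14 after median-ratio scaling, 5 without a filter, 5 with a pseudocount of 0.1 TPM and 0 with the replicate block. The shares of all transcripts called under these settings are not given here. Same-numbered libraries deviated together only weakly (correlations of 0.0793, 0.0651 and 0.0597) and none best with its own number, so the replicate block is an alternative only. It gave 7 kinetochore genes (Cenpf added) and 1391 genes in all, and shKmt2f replicate 4, which has no partner, adds nothing to its fold changes. The Setd1a sum passed with transcripts weighted by length (log2 fold change -0.78, adjusted p = 0.0223). With length weighting the kinetochore calls were 7 lower and 0 higher, where 6.9% of all genes were lower and 11.4% higher. No named gene that had passed changed direction. The cause of these changes was not tested. Short transcripts limit the sums, since 15 transcripts under 400 bases hold 28.1% of the TPM of the 35 genes, and the depth behind them is unknown.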

Other observations

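The 4 shKmt2f libraries fell into pairs across all genes, with Pearson r = 0.986 between replicates 1 and 2 and 0.988 between replicates 3 and 4, against 0.975 to 0.978 across the pairs. Atoh7, a gene of early neurogenic precursors, followed these pairs, with 20.4 and 37.3 TPM in shKmt2f replicates 1 and 2 and 429 and 428 TPM in replicates 3 and 4, beside 98.95, 101 and 312 TPM in the control libraries. Cenpa, at 64.2 and 75.8 TPM in replicates 1 and 2 and 73.1 and 87.6 TPM in replicates 3 and 4, did not separate them. The cause was not tested.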
